A study of Mus musculus with 26 samples.

Results

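The genes described here are 52 extracellular matrix and fibrosis genes, measured by RNA-seq in the left ventricle of hypertensive and normotensive mice given a formylpeptide receptor agonist or vehicle. They were taken by gene symbol from a table of 40413 genes: collagens, elastic fibre and microfibril genes, matricellular proteins, small leucine-rich proteoglycans, enzymes that process and crosslink collagen, and TGF-beta ligands. All 52 symbols were found. The 4 groups were BPH/2J mice given Cmpd17b, BPH/2J mice given vehicle, BPN/3J mice given Cmpd17b and BPN/3J mice given vehicle, each for 28 days. Cmpd17b, a small-molecule agonist of formylpeptide receptors, was given once daily by intraperitoneal injection at 50 mg/kg/day. BPH/2J is an inbred strain with high blood pressure and BPN/3J is its strain with normal pressure. All animals were adult, and the labels name no engineered allele. The strains are separate inbred lines, so high pressure and the other genetic differences between them cannot be told apart here.

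The cardiac extracellular matrix is laid down mostly by fibroblasts. Fibrillar collagens give it tensile strength, network-forming and basement membrane collagens surround the cells and vessels, and elastic fibres built on fibrillin microfibrils give recoil. Matricellular proteins such as periostin and the thrombospondins are secreted into the matrix and act on cells more than they bear load. TGF-beta, stored in the matrix on latent binding proteins, is the best known inducer of matrix genes in heart fibroblasts, and the prolonged pressure load of hypertension is known to bring collagen accumulation in the ventricle.

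The promoters of a pair of genes that were higher in BPH/2J ventricles with no overlap between the vehicle groups, Col6a3 and Thbs2, and of Ccn1, which was lower, are shown here as the 250 bases before the annotated start in the RefSeq entry of the C57BL/6J reference (GRCm38.p6), read 5′ to 3′ on the minus strand, the strand of each of these genes. They are reference sequence, not that of BPH/2J or BPN/3J. The windows are chr1:90843972-90844221 for Col6a3, chr17:14694263-14694512 for Thbs2 and chr3:145649986-145650235 for Ccn1, and capitals mark matches on either strand to TATAAA as the core promoter box, CCAAT as the box bound by NF-Y, TGANTCA as the site of AP-1 or GGAATG as the site of TEAD factors.
Col6a3: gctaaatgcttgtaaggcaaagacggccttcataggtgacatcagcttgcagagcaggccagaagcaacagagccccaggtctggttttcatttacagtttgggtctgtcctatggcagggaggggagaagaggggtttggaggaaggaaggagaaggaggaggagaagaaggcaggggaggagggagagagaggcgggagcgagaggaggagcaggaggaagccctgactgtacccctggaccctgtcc
Thbs2: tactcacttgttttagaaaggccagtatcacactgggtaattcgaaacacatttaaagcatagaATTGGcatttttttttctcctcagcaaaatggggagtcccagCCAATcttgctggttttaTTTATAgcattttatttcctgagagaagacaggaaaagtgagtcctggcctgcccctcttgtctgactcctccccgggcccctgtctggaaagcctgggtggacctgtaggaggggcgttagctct
Ccn1: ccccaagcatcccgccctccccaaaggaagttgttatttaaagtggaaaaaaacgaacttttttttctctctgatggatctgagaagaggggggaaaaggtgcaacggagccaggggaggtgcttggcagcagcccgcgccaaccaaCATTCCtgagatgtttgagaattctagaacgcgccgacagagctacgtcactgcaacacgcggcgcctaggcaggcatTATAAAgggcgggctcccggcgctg
The Col6a3 window held none of the 4 motifs. In Thbs2, CCAAT matched at -186 on the reverse strand and at -144 on the forward strand, and TATAAA matched on the reverse strand at -126, counting back from the start. In Ccn1, TATAAA matched at -25 and GGAATG at -103 on the reverse strand, and the matches in these windows did not overlap each other. Of the 52 genes, 33 had a promoter entry, with 38 windows in all. TATAAA was found in 26.3% of those windows, against 12.4% of all 32851 mouse promoter windows of that length. For CCAAT the shares were 26.3% against 33.8%, for TGANTCA 2.6% against 6.7%, and for GGAATG 15.8% against 12.6%. A match says only that the letters are present.

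The 26 libraries held 25476112 to 48648196 counts each. Every title names its own animal, and each library was therefore counted as 1 mouse. Replicate numbers are not in the labels and were given here. The BPH/2J Cmpd17b library numbered replicate 7 expressed kidney genes (Umod 1927 CPM, against 0 to 6.70 in the other 25) and had Myh6, the adult cardiac myosin heavy chain, at 12.4 CPM against 13440 to 23510. It was left out of every comparison below, which left 6 BPH/2J Cmpd17b, 7 BPH/2J vehicle, 5 BPN/3J Cmpd17b and 7 BPN/3J vehicle libraries. A second library, BPH/2J Cmpd17b replicate 6, stood apart from the other 24 in many of the genes described here, so each result is given with it (25 libraries) and without it (24 libraries). Sequencing batch is given in the labels: the BPN/3J Cmpd17b mice were all in batch 1, each other group had 5 in batch 1, and replicate 6 was the only batch 2 library of its group after replicate 7 was left out.

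In BPH/2J Cmpd17b replicate 6, matrix genes were far above every other heart. Postn, which encodes periostin, a matricellular protein made by activated fibroblasts, was at 506 CPM there, against 29.3 to 46.0 CPM in replicates 1 to 5. Cthrc1, a secreted protein of collagen-producing fibroblasts, was at 6.69 CPM against at most 0.404 CPM in the other 24 libraries, and the provisional-matrix glycoprotein Tnc was at 32.5 CPM against at most 2.86 CPM. Of the 52 genes, 42 had their highest value of the 25 libraries in replicate 6, which was so for 10.8% of all genes tested. It was more than 2-fold above the median of the other 5 for 34 genes, against 6.06% of all genes, more than 5-fold for 15 and more than 10-fold for 11. The shares of all genes over 5-fold and over 10-fold were not taken. Of the 11, Cthrc1, Tnc, Fmod, Spp1, Col12a1 and Col8a2 had medians under 1 CPM in the other 5, while that of Postn was 35.5 CPM. The median ratio was 3.04 over the 52 genes and 1.01 over all genes tested.

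**Figure D1:**
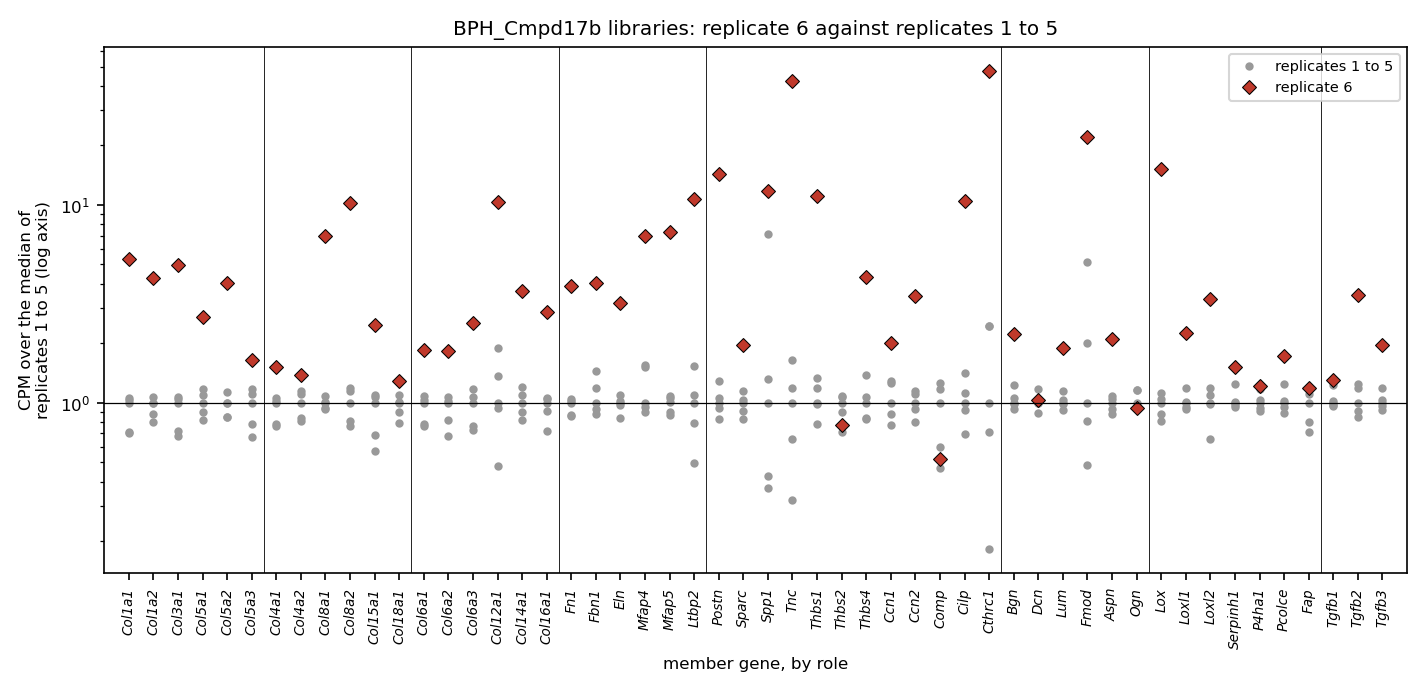
CPM in BPH/2J Cmpd17b replicate 6 (diamonds) and in replicates 1 to 5 (grey points) over the median of replicates 1 to 5, on a log axis, for each of the 52 genes grouped by role. The diamond of Cthrc1 is the highest at 47.5, and of the diamonds only Thbs2, Comp and Ogn lie below 1.

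By role, the median ratio in replicate 6 was 7.40 for the matricellular genes, 5.48 for the elastic fibre and microfibril genes and 4.15 for the fibrillar collagens. It was 2.71 for type VI and fibril-associated collagens, 1.99 for basement membrane and network collagens, 1.99 for the small leucine-rich proteoglycans, 1.95 for the TGF-beta ligands and 1.72 for the processing genes. Lox, the enzyme that starts collagen and elastin crosslinking, had 37.7 CPM in replicate 6, against 2.01 to 2.78 CPM in replicates 1 to 5. Not every matrix gene was high there. The thrombospondin Thbs2 was at 23.9 CPM in replicate 6, against 21.8 to 33.3 CPM in the other 5, and decorin (Dcn), which coats collagen fibrils, was at 463 CPM against 398 to 526 CPM. The summed level of the 52 genes was 6708 CPM in replicate 6, against 2128 to 3687 CPM in the other 24 libraries. The 12 resident fibroblast markers listed for this check summed to 1134 CPM in replicate 6 (1239 to 2610 CPM in the other 24), a sum that Gsn sets, at 480.7 CPM there against 669.9 to 1830 CPM. Without Gsn the other 11 summed to 654 CPM, against 429 to 780 CPM, and Pdgfra, Tcf21, Dpt, Medag and Pi16 were each at their highest of the 25 libraries in replicate 6, with Dpt at 86.2 CPM against 48.0 to 84.3 CPM and Pdgfra at 36.7 CPM against 22.5 to 32.9 CPM. The activated fibroblast markers (8 tested of 10) summed to 196 CPM in replicate 6, within the 109 to 247 CPM of the other 24. Of these, Acta2 was at 59.2 CPM in replicate 6, against 36.2 to 164.5 CPM in the other 24. Meox1 (24.3 CPM against at most 23.2 CPM) and Adam12 (3.99 CPM against at most 2.365 CPM) were each at their highest of the 25 libraries there. A sum without Acta2 was not taken. The 10 mural markers summed to 3076 CPM, against 1571 to 2761 CPM, of which Des, also a cardiomyocyte gene, was 2283 CPM, and the 9 others summed to 793 CPM, against 768 to 1176 CPM. The 10 macrophage markers summed to 194 CPM, the highest of the 25, the 10 endothelial markers to 916 CPM, the lowest (978 to 2820 CPM in the other 24), and the 12 cardiomyocyte markers to 58600 CPM, against 61190 to 83110 CPM. BPN/3J vehicle replicate 7 alone set the 2610, 2820 and 61190 CPM that end the resident fibroblast, endothelial and cardiomyocyte ranges. The next highest endothelial sum was 1326 CPM, in a BPH/2J vehicle library. The atrial marker list summed to 2582 CPM against 117 to 1072 CPM, nearly all of it Nppa at 2550 CPM, while the defining atrial genes Myl7 and Sln were at 0.0875 and 0 CPM. The part of these markers in the matrix values was not tested, and in tissue RNA fewer cells of a type and less RNA per cell cannot be told apart.

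**Figure D2:**
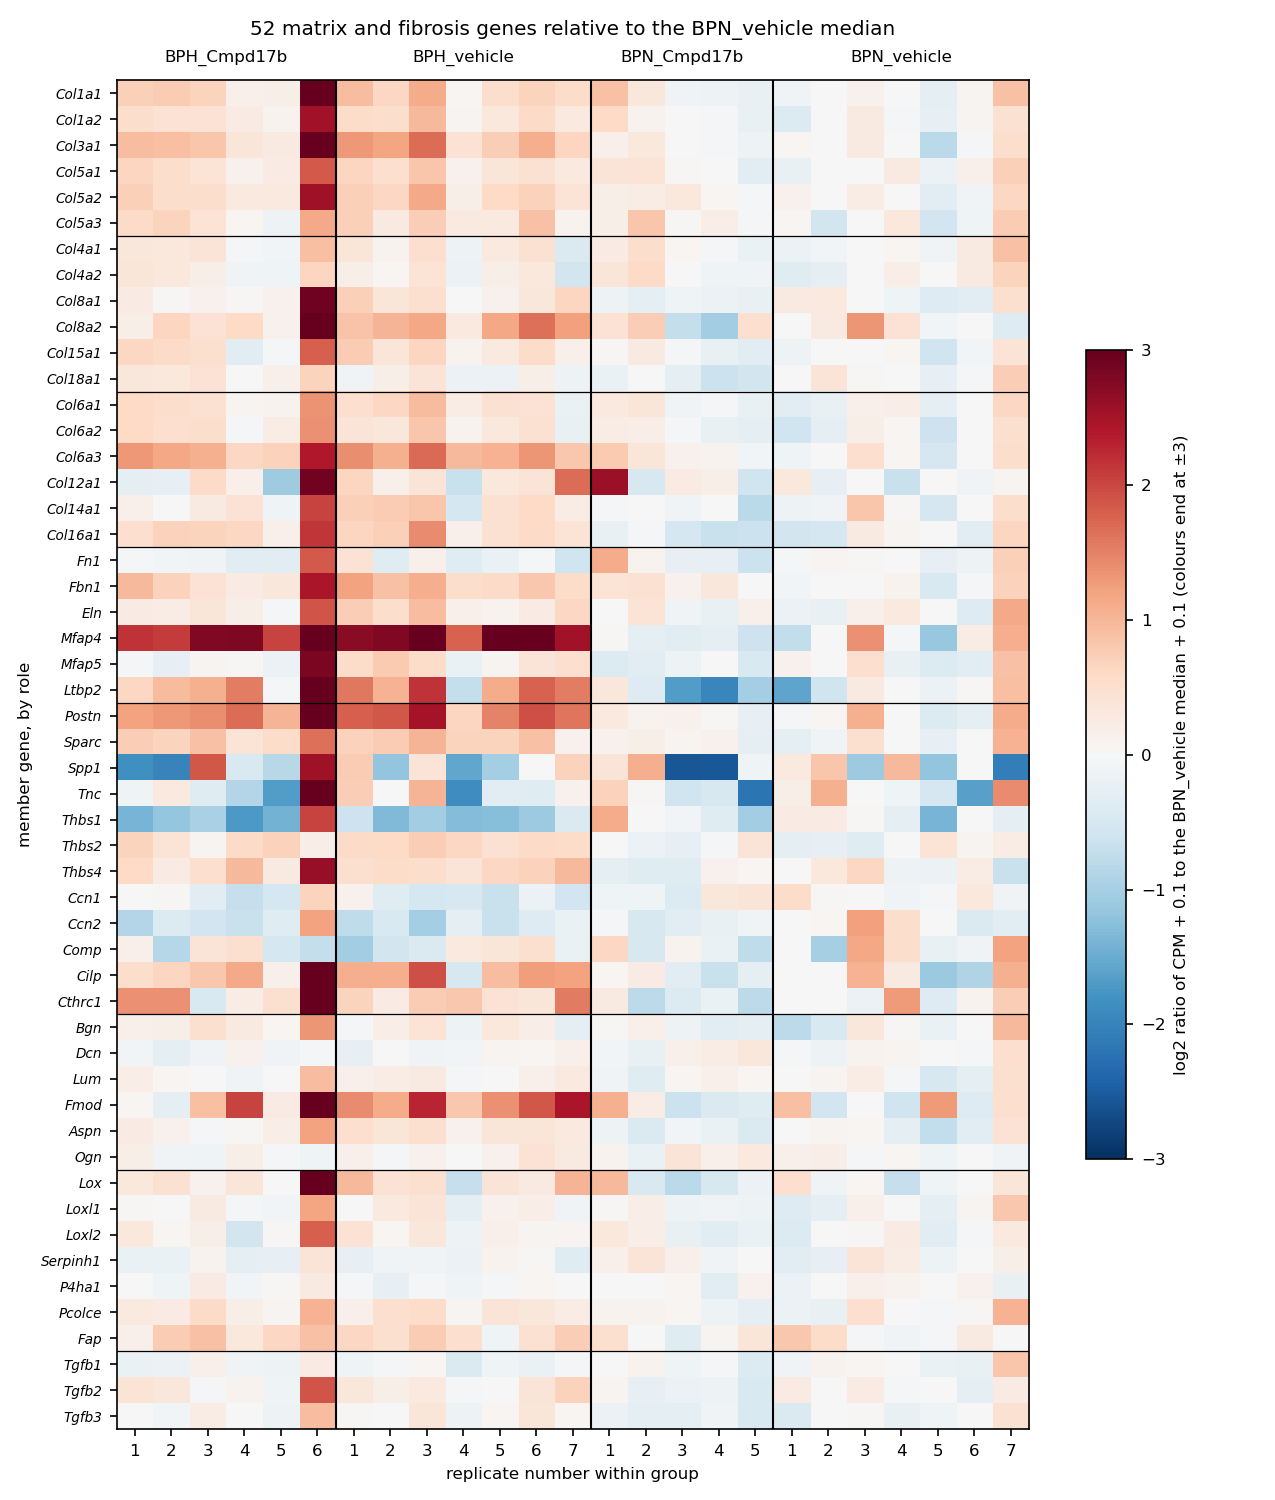
Log2 ratio of each gene's CPM (plus 0.1) to the median of the BPN/3J vehicle libraries, with a column for each of the 25 libraries and colours that end at 3 in either direction. BPH/2J Cmpd17b replicate 6 is the column where most genes are high, and Mfap4 is high across the BPH/2J columns.

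Under vehicle, several structural matrix genes were higher in BPH/2J than in BPN/3J ventricles, led by the microfibril glycoprotein Mfap4, the type VI collagen chain Col6a3 and Thbs2. Ccn1 and Ccn2, secreted matricellular proteins that are classical targets of YAP and of TGF-beta, were lower. In the fit of 25 libraries, 7 of the 52 genes rose and 2 fell at an adjusted p under 0.05 (edgeR's quasi-likelihood test, Benjamini-Hochberg over all 15543 genes tested), where 18.9% of all genes passed, 9.16% higher and 9.73% lower. In the fit of 24 libraries, 19 rose and 3 fell of the 51 tested, where 20.0% of all genes passed, 9.79% higher and 10.2% lower. The vehicle libraries are the same in both fits, which share 1 estimate of the spread over all groups; for Mfap4 the SE of the difference was 0.45 with replicate 6 and 0.29 without it. Leaving out 1 vehicle library at a time gave 4 to 13 calls with 25 libraries, where 16.8% to 24.2% of all genes passed, and 18 to 28 with 24, where 17.8% to 25.8% did. The counts of 4 or 5 came without BPH/2J vehicle replicate 3, 5 or 6 or BPN/3J vehicle replicate 1, 2 or 5, and Mfap4, Col6a3 and Thbs2 passed in all of these fits. Cthrc1 did not pass the filter on low counts in the fit of 24 libraries and is the gene missing there. The median log2 difference was 0.33 over the 52 genes with 25 libraries and 0.34 over the 51 with 24, while that of all genes was 0.00 in both. Every BPH/2J vehicle library was above every BPN/3J vehicle library for 3 genes, Col6a3, Thbs2 and Mfap4, which was so for 3.40% of all genes, and none of the 52 had every BPH/2J library below, where 2.96% of all genes did.

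**Figure D3:**
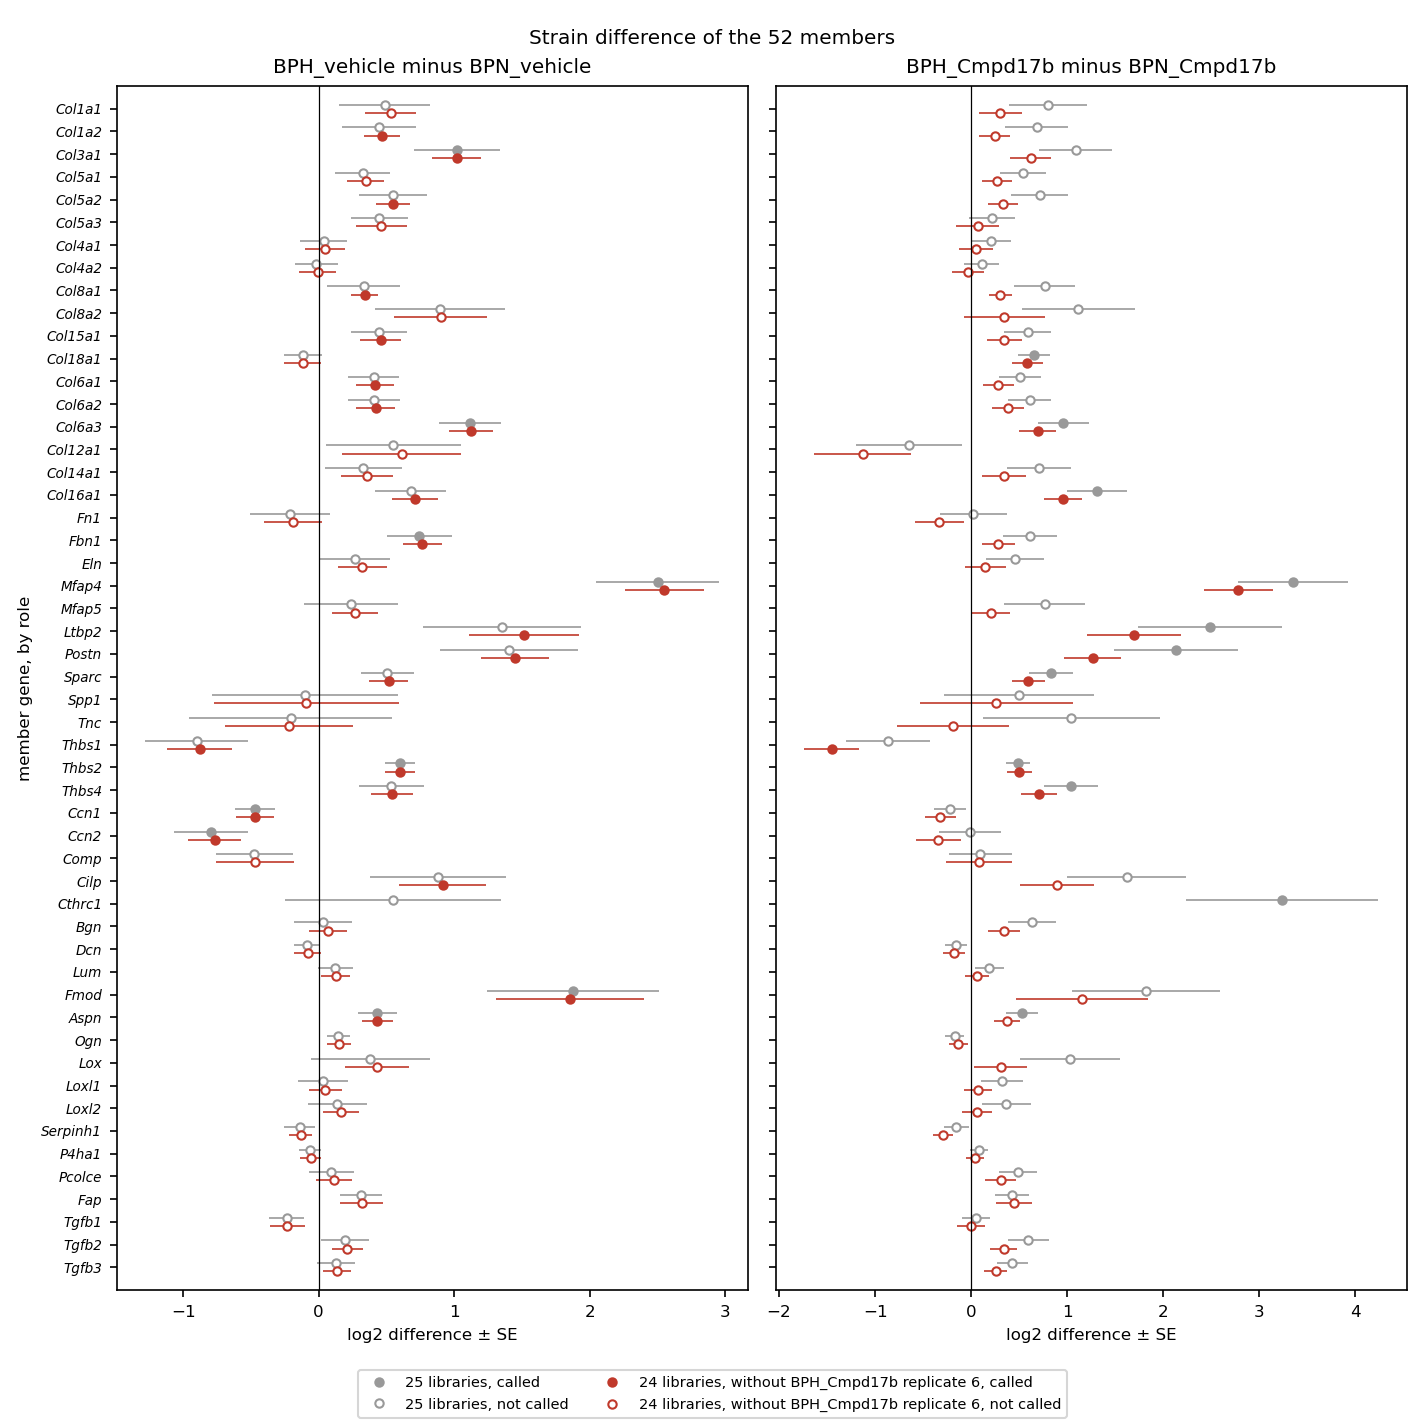
Log2 difference, BPH/2J minus BPN/3J, with its SE for each of the 52 genes under vehicle and, on a wider axis, under Cmpd17b, in grey for 25 libraries and in red for 24; filled points passed the test. Mfap4 stands farthest to the right among the red points in both panels, at 2.55 under vehicle and 2.78 under Cmpd17b.

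The fibrillar collagens form the load-bearing fibrils of the heart, mainly types I and III, with type V inside them. Col3a1, the type III chain, had a lowest, median and highest value of 114, 180.1 and 269.5 CPM in BPH/2J vehicle libraries, against 48.0, 84.2 and 122 CPM in BPN/3J vehicle libraries. Only the lowest BPH/2J library lay below the highest BPN/3J library, and the difference was 1.02 ± 0.32 on the log2 scale with 25 libraries (SE; adjusted p = 0.0255) and 1.02 ± 0.18 with 24 (adjusted p = 0.000143). Leaving out 1 vehicle library lost the call in 4 of 14 fits with 25 libraries and in none with 24. Col1a1, a type I chain, overlapped more, at 37.3, 55.3 and 78.4 CPM in BPH/2J vehicle and 30.0, 36.0 and 66.6 CPM in BPN/3J vehicle libraries. It did not pass in either fit, with a log2 difference of 0.53 ± 0.19 and an adjusted p of 0.0505 in edgeR with 24 libraries. Its partner Col1a2 (0.47 ± 0.13, adjusted p = 0.0127) and the type V chain Col5a2 (0.55 ± 0.13, adjusted p = 0.0024) passed only with 24 libraries. In that fit 3 of the 6 fibrillar collagens rose, with a median log2 difference of 0.50; with 25 libraries 1 of the 6 did, with a median of 0.47.

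Type VI collagen makes beaded filaments that link cells to the fibrils. Col6a3 was at 17.9, 21.3 and 33.1 CPM in BPH/2J vehicle libraries (lowest, median, highest), against 7.12, 10.1 and 14.5 CPM in BPN/3J vehicle libraries. The groups did not overlap, and the log2 difference was 1.12 ± 0.23 with 25 libraries (edgeR adjusted p = 0.000729) and 1.12 ± 0.16 with 24 (adjusted p = 1.02e-05). Its partner chains Col6a1 (0.42 ± 0.14, adjusted p = 0.0334) and Col6a2 (0.42 ± 0.14, adjusted p = 0.0399) passed with 24 libraries, each losing its call in 8 of the 14 fits that left out 1 vehicle library. Col16a1, a fibril-associated collagen, had 6.54, 8.80 and 15.9 CPM in BPH/2J vehicle against 3.96, 5.84 and 9.13 CPM in BPN/3J vehicle libraries; the ranges overlapped, and it passed with 24 libraries (0.71 ± 0.17, adjusted p = 0.00271). Among the basement membrane and network collagens, Col8a1 (0.34 ± 0.10, adjusted p = 0.0134) and Col15a1 (0.46 ± 0.15, adjusted p = 0.0335) rose in the fit of 24 and none of the 6 in the fit of 25. The type IV chains of the basement membrane did not pass, at 0.05 ± 0.15 for Col4a1 and -0.01 ± 0.14 for Col4a2 on the log2 scale. Col18a1, whose end fragment is endostatin, was at 6.63, 6.99 and 9.89 CPM in BPH/2J vehicle and 6.36, 7.53 and 12.6 CPM in BPN/3J vehicle libraries, a difference of -0.12 ± 0.14 that did not pass.

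Among elastic fibre and microfibril genes, Mfap4, which binds elastin and fibrillin, had 6.0, 12.2 and 19.4 CPM in BPH/2J vehicle libraries (lowest, median, highest) and 0.722, 1.70 and 4.52 CPM in BPN/3J vehicle libraries. The lowest BPH/2J library was above the highest BPN/3J library. The log2 difference was 2.50 ± 0.45 with 25 libraries (edgeR adjusted p = 0.000285) and 2.55 ± 0.29 with 24 (adjusted p = 3.95e-07). Fbn1, fibrillin-1, the backbone of the microfibril, had 46.4, 57.1 and 74.4 CPM in BPH/2J vehicle against 23.5, 32.3 and 52.2 CPM in BPN/3J vehicle libraries, and 1 BPN/3J library, replicate 7, reached into the BPH/2J range. Its log2 difference was 0.74 ± 0.24 (adjusted p = 0.0309) and 0.77 ± 0.15 (adjusted p = 0.000317) with 25 and with 24 libraries in edgeR. Leaving out 1 vehicle library lost the Fbn1 call in 6 of 14 fits with 25 libraries and in none with 24. Ltbp2, a latent TGF-beta binding protein family member that binds fibrillin, had 1.18, 5.93 and 9.31 CPM in BPH/2J vehicle and 0.596, 1.98 and 3.81 CPM in BPN/3J vehicle libraries. It passed with 24 libraries (1.52 ± 0.41, adjusted p = 0.00923), although the lowest BPH/2J library lay below the median of the BPN/3J libraries. Fn1, fibronectin, on which early matrix is assembled, was at 23.4, 30.4 and 47.6 CPM in BPH/2J vehicle and 29.5, 35.2 and 58.3 CPM in BPN/3J vehicle libraries, and its log2 difference of -0.19 ± 0.22 did not pass. Elastin itself (Eln) did not pass either, at 0.32 ± 0.18.

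Matricellular genes went in both directions. Thbs2, which binds cells and proteases in the matrix, had 28.4, 31.0 and 34.5 CPM in BPH/2J vehicle libraries and 16.1, 20.7 and 27.6 CPM in BPN/3J vehicle libraries. The groups did not overlap, with a log2 difference of 0.60 ± 0.11 in both fits (edgeR adjusted p = 0.000133 with 25 and 0.000141 with 24). Postn had 22.4, 49.6 and 80.8 CPM in BPH/2J vehicle against 10.8, 14.3 and 31.2 CPM in BPN/3J vehicle libraries, with 2 BPN/3J libraries inside the BPH/2J range. It missed the threshold with 25 libraries (adjusted p = 0.0582) and passed with 24 (1.45 ± 0.25, adjusted p = 0.000163). Sparc, a collagen-binding glycoprotein, had 225, 334 and 421 CPM in BPH/2J vehicle and 169, 206 and 428 CPM in BPN/3J vehicle libraries. The highest Sparc value of all vehicle libraries belonged to BPN/3J replicate 7, and the difference passed with 24 libraries (0.52 ± 0.15, adjusted p = 0.011). Thbs4, a thrombospondin of heart and tendon, passed there too (0.54 ± 0.16, adjusted p = 0.0133), at 5.16, 5.77 and 7.74 CPM in BPH/2J vehicle and 2.46, 3.92 and 6.13 CPM in BPN/3J vehicle libraries.

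The 3 matricellular genes that fell were Ccn1, Ccn2 and Thbs1. Ccn2, connective tissue growth factor, had 40.2, 59.8 and 71.2 CPM in BPH/2J vehicle libraries and 61.1, 82.1 and 194 CPM in BPN/3J vehicle libraries. Of the 7 BPH/2J values 3 lay above the lowest BPN/3J value, and the log2 difference was -0.80 ± 0.27 with 25 libraries (edgeR adjusted p = 0.0446) and -0.77 ± 0.20 with 24 (adjusted p = 0.0058). The call with 25 libraries was lost in 9 of the 14 fits that left out 1 vehicle library, where the difference ran from -0.90 to -0.50; it was -0.50 (adjusted p = 0.135) without BPN/3J vehicle replicate 3, the library at 194 CPM. With 24 libraries the call was kept in all 14, at -0.86 to -0.51. Ccn1 had 22.5, 25.4 and 39.1 CPM in BPH/2J vehicle and 33.2, 35.7 and 52.4 CPM in BPN/3J vehicle libraries, a log2 difference of -0.47 ± 0.15 (adjusted p = 0.0258) and -0.47 ± 0.14 (adjusted p = 0.0161). Its call was lost in 4 of the 14 fits with 25 libraries and in none with 24. Thbs1, an activator of latent TGF-beta, had 2.78, 3.31 and 5.25 CPM in BPH/2J vehicle and 2.66, 7.14 and 8.46 CPM in BPN/3J vehicle libraries, and passed with 24 libraries (-0.88 ± 0.24, adjusted p = 0.00913). Of the 11 matricellular genes tested in that fit 5 rose and 3 fell, with a median log2 difference of -0.09, and Tnc, Spp1 and Comp did not pass.

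Of the 6 small leucine-rich proteoglycans, which coat collagen fibrils and set their width, Aspn and Fmod rose. Aspn had 27.8, 32.7 and 36.2 CPM in BPH/2J vehicle against 15.2, 25.5 and 34.4 CPM in BPN/3J vehicle libraries (0.43 ± 0.14, edgeR adjusted p = 0.0338 with 25 libraries). Fmod was low, at 0.255, 0.448 and 1.01 CPM in BPH/2J vehicle against 0.0353, 0.104 and 0.394 CPM in BPN/3J vehicle libraries (1.88 ± 0.63, adjusted p = 0.0376 with 25 libraries). Of the 14 fits of 25 libraries that left out 1 vehicle library, Aspn lost its call in 9 and Fmod in 8. With 24 libraries both kept it in all 14. The abundant members did not pass: the log2 difference with 24 libraries was -0.08 ± 0.10 for Dcn, 0.13 ± 0.11 for Lum and 0.07 ± 0.14 for Bgn. None of the 7 processing genes, from Lox to the collagen chaperone Serpinh1, passed in either fit (their median was 0.11 with 24 libraries), nor did a TGF-beta ligand. Tgfb1 was at 14.9, 18.5 and 21.1 CPM in BPH/2J vehicle and 17.2, 20.2 and 36.3 CPM in BPN/3J vehicle libraries, a log2 difference of -0.23 ± 0.13 with 24 libraries.

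**Figure D4:**
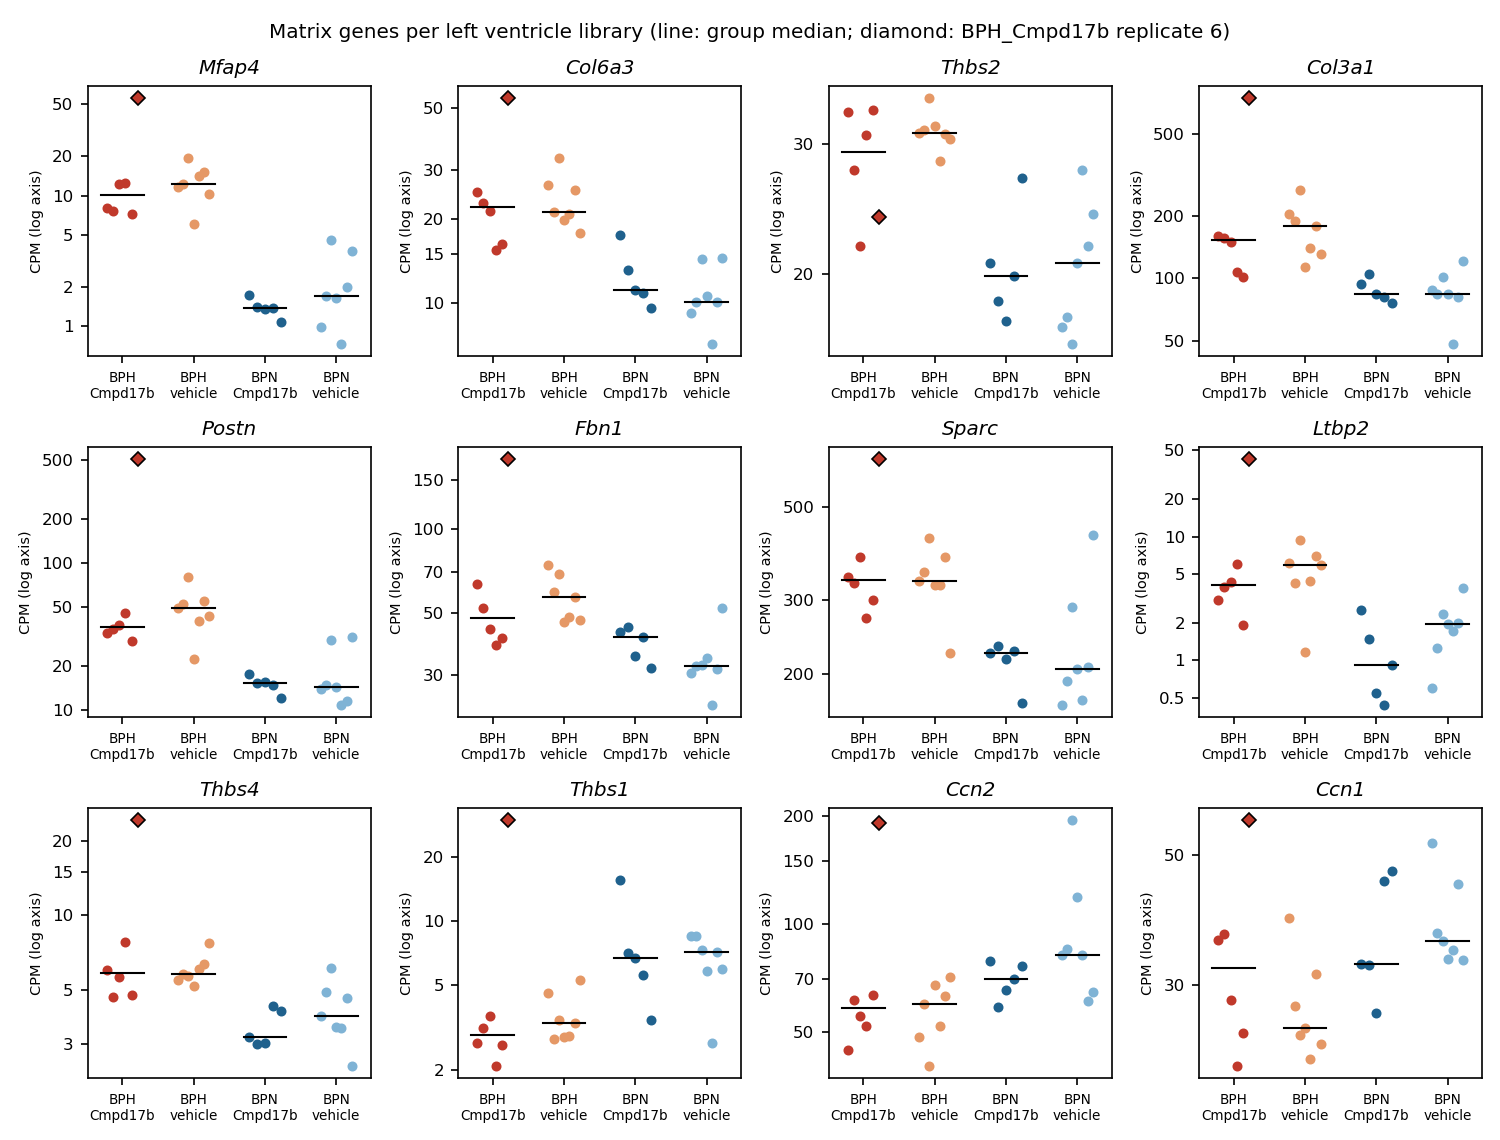
CPM on a log axis for 12 of the genes in each of the 25 libraries, with a line at the median of each group and BPH/2J Cmpd17b replicate 6 as a diamond. The BPH/2J and BPN/3J vehicle libraries do not overlap for Mfap4, Col6a3 and Thbs2, and replicate 6 lies far above its group for Postn but not for Thbs2.

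Relative to exon length, the secreted glycoprotein gene Sparc (89.2 ± 16.0 CPM per kb, SD) and the proteoglycan gene Dcn (81.2 ± 7.31) had the highest levels of the 52 in BPH/2J vehicle ventricles, and Dcn (86.4 ± 14.0) and Sparc (62.9 ± 24.4) in BPN/3J vehicle ventricles (n = 7 each). Col12a1 was the lowest in both, at 0.0639 ± 0.0386 CPM per kb in BPH/2J vehicle and 0.0389 ± 0.00919 CPM per kb in BPN/3J vehicle ventricles.

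Under Cmpd17b, the strains again differed in Mfap4, Thbs2, Col6a3, Col16a1, Postn, Sparc, Thbs4 and Ltbp2, all higher in BPH/2J. With 25 libraries 11 of the 52 genes rose and none fell, where 14.1% of all genes passed, 7.48% higher and 6.65% lower. With 24 libraries 9 of 51 rose and 1 fell, where 13.0% of all genes passed, 6.78% higher and 6.18% lower. The median log2 difference over the members was 0.56 with replicate 6 and 0.28 without it, against 0.01 and 0.00 over all genes. Every BPH/2J Cmpd17b library was above every BPN/3J Cmpd17b library for 7 of the 52 genes, Col8a1, Col16a1, Postn, Sparc, Thbs4, Aspn and Mfap4, with or without replicate 6, which was so for 7.48% of all genes without it. With 25 libraries, leaving out 1 library at a time gave 7 to 15 calls, where 11.7% to 13.3% of all genes passed; there were 7 without BPN/3J Cmpd17b replicate 4 or 5, and Mfap4, Col16a1, Col18a1, Col6a3, Sparc, Thbs2 and Thbs4 passed in all 11 of these fits. These mice are not those of the vehicle comparison. In the fits of 24 libraries 9 genes passed in both comparisons with the same sign, 40.9% of the vehicle list and 90% of the Cmpd17b list, where for all genes the shares were 53.8% and 82.9%.

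Mfap4 was at 8.03, 7.61, 12.2, 12.5 and 7.18 CPM in BPH/2J Cmpd17b replicates 1 to 5 and 55.6 CPM in replicate 6, against 1.73, 1.39, 1.34, 1.38 and 1.07 CPM in the 5 BPN/3J Cmpd17b libraries. Its lowest BPH/2J value was above all of BPN/3J, and the log2 difference was 3.35 ± 0.57 with 25 libraries (edgeR adjusted p = 0.0002) and 2.78 ± 0.36 with 24 (adjusted p = 3.3e-06). Postn was at 33.3, 35.5, 37.7, 46.0 and 29.3 CPM in BPH/2J Cmpd17b replicates 1 to 5, against 17.6, 15.3, 15.6, 14.7 and 12.1 CPM in BPN/3J Cmpd17b libraries. The groups did not overlap; the log2 difference of 2.13 ± 0.64 with 25 libraries (adjusted p = 0.0284) was 1.27 ± 0.30 with 24 (adjusted p = 0.00483). Col16a1 was at 8.26, 9.52, 9.40, 9.03 and 6.51 CPM in BPH/2J Cmpd17b replicates 1 to 5 and 26 CPM in replicate 6, against 5.02, 5.69, 4.02, 3.61 and 3.72 CPM in BPN/3J Cmpd17b libraries. It passed in both fits, at 1.31 ± 0.31 (adjusted p = 0.00431) and 0.96 ± 0.20 (adjusted p = 0.00127).

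Sparc was at 341, 330.0, 379.6, 272 and 301 CPM in BPH/2J Cmpd17b replicates 1 to 5 and 649 CPM in replicate 6, against 225, 233, 218, 227 and 171 CPM in BPN/3J Cmpd17b libraries. No values overlapped, and the log2 difference was 0.83 ± 0.23 (edgeR adjusted p = 0.014) and 0.59 ± 0.17 (adjusted p = 0.019) with 25 and with 24 libraries. Thbs4 was at 6.0, 4.66, 5.64, 7.83 and 4.75 CPM in BPH/2J Cmpd17b replicates 1 to 5 and 24.3 CPM in replicate 6, against 3.21, 3.02, 3.04, 4.31 and 4.10 CPM in BPN/3J Cmpd17b libraries. It did not overlap either, and passed at 1.04 ± 0.28 (adjusted p = 0.0111) and 0.71 ± 0.19 (adjusted p = 0.00869). Thbs2 was at 33.1, 27.6, 21.8, 30.8 and 33.3 CPM in BPH/2J Cmpd17b replicates 1 to 5 and 23.9 CPM in replicate 6, against 20.7, 18.4, 17.3, 19.9 and 27.0 CPM in BPN/3J Cmpd17b libraries. Here BPN/3J replicate 5 lay inside the BPH/2J range, and the difference passed at 0.49 ± 0.12 (adjusted p = 0.00669) and 0.50 ± 0.13 (adjusted p = 0.00782).

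Col6a3 was at 25, 22.8, 21.4, 15.5 and 16.3 CPM in BPH/2J Cmpd17b replicates 1 to 5 and 54.2 CPM in replicate 6, against 17.5, 13.1, 11.1, 10.9 and 9.58 CPM in BPN/3J Cmpd17b libraries. BPN/3J replicate 1 overlapped the lower BPH/2J libraries; the difference was 0.96 ± 0.26 with 25 libraries (edgeR adjusted p = 0.0138) and 0.70 ± 0.19 with 24 (adjusted p = 0.0145). Ltbp2 was at 3.09, 3.91, 4.28, 5.97 and 1.94 CPM in BPH/2J Cmpd17b replicates 1 to 5 and 41.9 CPM in replicate 6, against 2.54, 1.49, 0.548, 0.436 and 0.924 CPM in BPN/3J Cmpd17b libraries. It passed at 2.48 ± 0.75 (adjusted p = 0.0271) and 1.69 ± 0.49 (adjusted p = 0.0231). Col18a1, which did not differ under vehicle past the threshold, was at 9.49, 9.35, 10.2, 7.43 and 8.42 CPM in BPH/2J Cmpd17b replicates 1 to 5, against 6.55, 7.45, 6.12, 4.79 and 5.08 CPM in BPN/3J Cmpd17b libraries. Only the lowest BPH/2J value reached into the BPN/3J range, and the difference passed at 0.65 ± 0.16 (adjusted p = 0.0057) and 0.58 ± 0.16 (adjusted p = 0.0141).

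Thbs1 was at 2.66, 3.15, 3.56, 2.08 and 2.61 CPM in BPH/2J Cmpd17b replicates 1 to 5, against 15.6, 7.07, 6.70, 5.54 and 3.41 CPM in BPN/3J Cmpd17b libraries. Replicate 6, at 29.6 CPM, was above them all, so its log2 difference was -0.87 (edgeR adjusted p = 0.228) with it and -1.45 ± 0.29 (adjusted p = 0.000649) without it. Aspn passed only with replicate 6 (0.53 ± 0.17, adjusted p = 0.0321, against 0.38 ± 0.14, adjusted p = 0.0706), at 30.4, 28.1, 24.7, 26.1 and 29.5 CPM in BPH/2J Cmpd17b replicates 1 to 5 and 23, 18.8, 23.9, 22.1 and 19.0 CPM in BPN/3J Cmpd17b libraries. Cthrc1 passed with replicate 6 (3.24 ± 1.00, adjusted p = 0.0282) and was not tested in the fit of 24 libraries. Its other BPH/2J Cmpd17b values were 0.0256 to 0.343 CPM and its BPN/3J Cmpd17b values 0 to 0.108 CPM. Without replicate 6 it passed when BPH/2J Cmpd17b replicate 3 or BPN/3J Cmpd17b replicate 1 was left out as well.

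Other genes read as signs of fibrosis did not pass between the strains under Cmpd17b in the main edgeR fits of 25 and of 24 libraries. DESeq2 called Col3a1 with 25 and with 24 libraries. In edgeR with 25 libraries, Col3a1 also passed with no batch term, and Col3a1 and Ccn2 passed with only the compared groups fitted. In the fit of only these groups, replicate 6 was the sole batch 2 library. The batch term took it up there, so that strain difference rested on the batch 1 libraries. Col3a1 was at 161, 157, 151, 108 and 102 CPM in BPH/2J Cmpd17b replicates 1 to 5, against 93.6, 104.9, 84.5, 81.6 and 76.3 CPM in BPN/3J Cmpd17b libraries. Its difference without replicate 6 was 0.62 ± 0.21 (edgeR adjusted p = 0.0559), where that with it takes in the 746 CPM of replicate 6. Col1a1 was at 58.8, 60.7, 57.2, 40.3 and 40.9 CPM in BPH/2J Cmpd17b replicates 1 to 5, within the range of 66.2, 45.6, 33.6, 32.5 and 30.7 CPM in BPN/3J Cmpd17b libraries (0.30 ± 0.22, adjusted p = 0.483). Without replicate 6 the differences were 0.28 for Fbn1 (adjusted p = 0.364), -0.33 for Fn1 (adjusted p = 0.511), -0.34 for Ccn2 (adjusted p = 0.43), -0.32 for Ccn1 (adjusted p = 0.25) and 0.00 for Tgfb1 (adjusted p = 0.999). The strain differences under Cmpd17b and under vehicle were set against each other by the interaction term, given further on.

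By role with 24 libraries, the genes that rose in BPH/2J under Cmpd17b were 4 of 11 matricellular genes (1 more fell), 2 of 6 type VI and fibril-associated collagens, 2 of 6 elastic fibre genes and 1 of 6 basement membrane and network collagens. None of the fibrillar collagens, the small leucine-rich proteoglycans, the processing genes or the TGF-beta ligands passed in edgeR, at medians of 0.29, 0.20, 0.07 and 0.25.

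Cell type markers also differed between the strains. The resident fibroblast markers (12 of 12 measured) summed to 1248, 1405 and 1447 CPM (lowest, median, highest) in BPH/2J Cmpd17b replicates 1 to 5 against 1578, 1599 and 1757 CPM in BPN/3J Cmpd17b libraries, and to 1239, 1387 and 1506 CPM in BPH/2J vehicle against 1436, 1628 and 2610 CPM in BPN/3J vehicle libraries. Most of the sum is Gsn, at 835 ± 87.0 CPM in BPH/2J vehicle and 1264 ± 289 CPM in BPN/3J vehicle libraries (SD, n = 7 each). Without Gsn the order of the medians turned, with 528 CPM in BPH/2J Cmpd17b replicates 1 to 5 against 465 CPM in BPN/3J Cmpd17b libraries, and 569 CPM in BPH/2J vehicle against 471 CPM in BPN/3J vehicle libraries. Under vehicle with 24 libraries the markers Smoc2 (0.39 ± 0.08, edgeR adjusted p = 0.000533), Pi16 (0.45 ± 0.14, adjusted p = 0.0188) and Dpt (0.30 ± 0.11, adjusted p = 0.0435) were higher in BPH/2J, and Gsn (-0.58 ± 0.09, adjusted p = 1.53e-05) and Lamc3 were lower. The 10 mural cell markers summed to 1653, 1671 and 2293 CPM in BPH/2J Cmpd17b replicates 1 to 5 against 2305, 2416 and 2592 CPM in BPN/3J Cmpd17b libraries, and to 1571, 2023 and 2356 CPM in BPH/2J vehicle against 2053, 2505 and 2761 CPM in BPN/3J vehicle libraries. Des carries that difference, at 861 ± 318 CPM in BPH/2J Cmpd17b replicates 1 to 5 and 1437 ± 113 CPM in BPN/3J Cmpd17b libraries (SD, n = 5 each). Without it the medians were 942 CPM in BPH/2J Cmpd17b replicates 1 to 5 against 968 CPM in BPN/3J Cmpd17b libraries, and 979 CPM in BPH/2J vehicle against 939 CPM in BPN/3J vehicle libraries. In edgeR with 24 libraries, 3 of the 10 mural markers, Des, Kcnj8 and Pdgfrb, passed as lower in BPH/2J under vehicle. Des and Kcnj8 did so under Cmpd17b, and none of the 10 passed as higher. The 5 atrial markers tested of 8 summed to 488, 620 and 762 CPM in BPH/2J Cmpd17b replicates 1 to 5 and 117, 230 and 238 CPM in BPN/3J Cmpd17b libraries, and to 360, 534 and 1072 CPM in BPH/2J vehicle and 202, 375 and 911 CPM in BPN/3J vehicle libraries. Nppa made up most of that sum, and without it the medians were 35.5 CPM in BPH/2J Cmpd17b replicates 1 to 5 against 35.3 CPM in BPN/3J Cmpd17b libraries, and 36.4 CPM in BPH/2J vehicle against 36.3 CPM in BPN/3J vehicle libraries. Of these 5 markers, Dkk3 and Myl4 passed as higher in BPH/2J under vehicle in edgeR with 24 libraries, and Nppa under Cmpd17b. None of the 5 passed as lower. BPH/2J vehicle replicate 7 held the defining atrial genes Myl7 (69.7 CPM, against at most 1.53 CPM elsewhere) and Sln (19.1 CPM, against at most 0.90 CPM), and without it 21 of the members passed under vehicle, against 22 with it, in the 24-library fit. Hepatocyte markers reached 578 CPM in a BPN/3J vehicle library, with a median of 12.6 CPM in that group and at most 5.83 CPM in the other groups. BPN/3J vehicle replicate 7 had the lowest median rank correlation with the other libraries of these 25, at 0.948, against 0.964 for BPH/2J Cmpd17b replicate 6. That BPN/3J library had the highest value of the 25 libraries for 22.6% of all genes and for 6 of the 52, and without it as well as replicate 6, 28 genes passed under vehicle, where 25.8% of all genes did. The part of these markers in the matrix results was not tested. Within batch 1 alone, 11 genes passed under vehicle, where 15.6% of all genes passed, and 10 under Cmpd17b, where 12.7% did. Under Cmpd17b the libraries compared there are the same as in the 24-library fit, so that count is no separate check on batch.

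The other genes of the matrix pathways were described by list, against the 20.0% of all genes that passed under vehicle and the 13.0% under Cmpd17b with 24 libraries. Under vehicle with 24 libraries, 4 laminins and nidogens of 14 rose and 2 fell, 4 of 21 collagen folding and maturation enzymes rose and 1 fell, and 3 of 19 integrins and discoidin receptors rose. Plod2, the lysyl hydroxylase of collagen telopeptides, was at 27.8 ± 2.04 CPM in BPH/2J vehicle and 18.6 ± 1.68 CPM in BPN/3J vehicle libraries (SD, n = 7 each), and the integrin Itga8 at 6.04 ± 1.12 CPM in BPH/2J vehicle and 3.17 ± 0.932 CPM in BPN/3J vehicle libraries. The TGF-beta receptors, Smads and targets gave 2 higher and 1 lower of 18, with Ltbp1, which holds latent TGF-beta in the matrix, at 42.0 ± 1.56 CPM in BPH/2J vehicle and 33.0 ± 1.79 CPM in BPN/3J vehicle libraries. Of 13 other elastic fibre genes 2 rose and 2 fell, among them Emilin2, an elastin-associated glycoprotein, at 8.56 ± 1.46 CPM in BPH/2J vehicle and 25.6 ± 6.03 CPM in BPN/3J vehicle libraries. Of 18 other collagens 1 rose and 3 fell. The list medians lay between -0.04 and 0.10. Under Cmpd17b the counts of genes that rose and fell were 1 and 0 for the TGF-beta list, 3 and 1 for the laminins, 2 and 1 for the integrins, 4 and 1 for the folding enzymes, 0 and 1 for the elastic fibre list and 0 and 2 for the other collagens.

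Between Cmpd17b and vehicle in BPH/2J ventricles, no gene of the 52 passed, in either fit, and 0% of all genes did. At an unadjusted p under 0.05, edgeR had 2 of the 52 with 25 libraries and 2 of 51 with 24, and DESeq2 called none. Counts at this unadjusted threshold, here and below, are not set against the share of all genes and are no result about the members. The direction depended on 1 heart: with replicate 6, 48 of the 52 log2 differences were above 0, with a median of 0.26, and without it 45 of 51 were below 0, with a median of -0.15, against medians of 0.00 over all genes in both fits. Col1a1 was at 40.3 to 60.7 CPM (median 57.2) in BPH/2J Cmpd17b replicates 1 to 5, 305 CPM in replicate 6, and 37.3, 55.3 and 78.4 CPM in BPH/2J vehicle libraries. Its log2 difference was 0.54 ± 0.35 with replicate 6 and -0.17 ± 0.22 without it. Postn, at a median of 35.5 CPM in BPH/2J Cmpd17b replicates 1 to 5 and 49.6 CPM in BPH/2J vehicle libraries, gave 0.68 ± 0.55 and -0.51 ± 0.28, and Col3a1, at a median of 150.7 CPM in BPH/2J Cmpd17b replicates 1 to 5 and 180.1 CPM in BPH/2J vehicle libraries, gave 0.26 ± 0.33 and -0.39 ± 0.21. Mfap4 gave 0.28 with and -0.56 without replicate 6, and Fn1 0.45 and -0.06. The ranges of the drug and vehicle groups overlapped for all 52 genes; they did not for 0.0772% of all genes with replicate 6 and 0.399% without it.

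The pair of genes with an unadjusted p under 0.05 in BPH/2J without replicate 6 were both lower under Cmpd17b, the microfibril glycoprotein Mfap5 (-0.46) and the network collagen Col8a2 (-0.85); these and the genes named with them were chosen after their values were seen. All fibrillar collagens, type VI and fibril-associated collagens, elastic fibre genes and proteoglycans had log2 differences below 0 in that fit, between -0.95 and -0.05, none past the threshold. Of the 12 resident fibroblast markers, 8 had a lower median in BPH/2J Cmpd17b replicates 1 to 5 than in BPH/2J vehicle libraries, among them Dpt at 62.5 CPM against 76.1 CPM, Tcf21 at 6.97 CPM against 9.11 CPM and Pdgfra at 26.8 CPM against 30.3 CPM. The other 4, Gsn, Dpep1, Medag and Lamc3, had a higher median, and none of the 12 passed with 24 libraries. The 12 summed to a median of 1405 CPM in BPH/2J Cmpd17b replicates 1 to 5 and 1387 CPM in BPH/2J vehicle libraries. Summed without Gsn, they had a median of 528 CPM in BPH/2J Cmpd17b replicates 1 to 5 and 569 CPM in BPH/2J vehicle libraries. Of the 12 cardiomyocyte markers, 11 had a higher median in BPH/2J Cmpd17b replicates 1 to 5 than in BPH/2J vehicle libraries, all but Tnni3. None of these 12 passed with 24 libraries either. The part of either marker list in the matrix values was not tested.

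**Figure D5:**
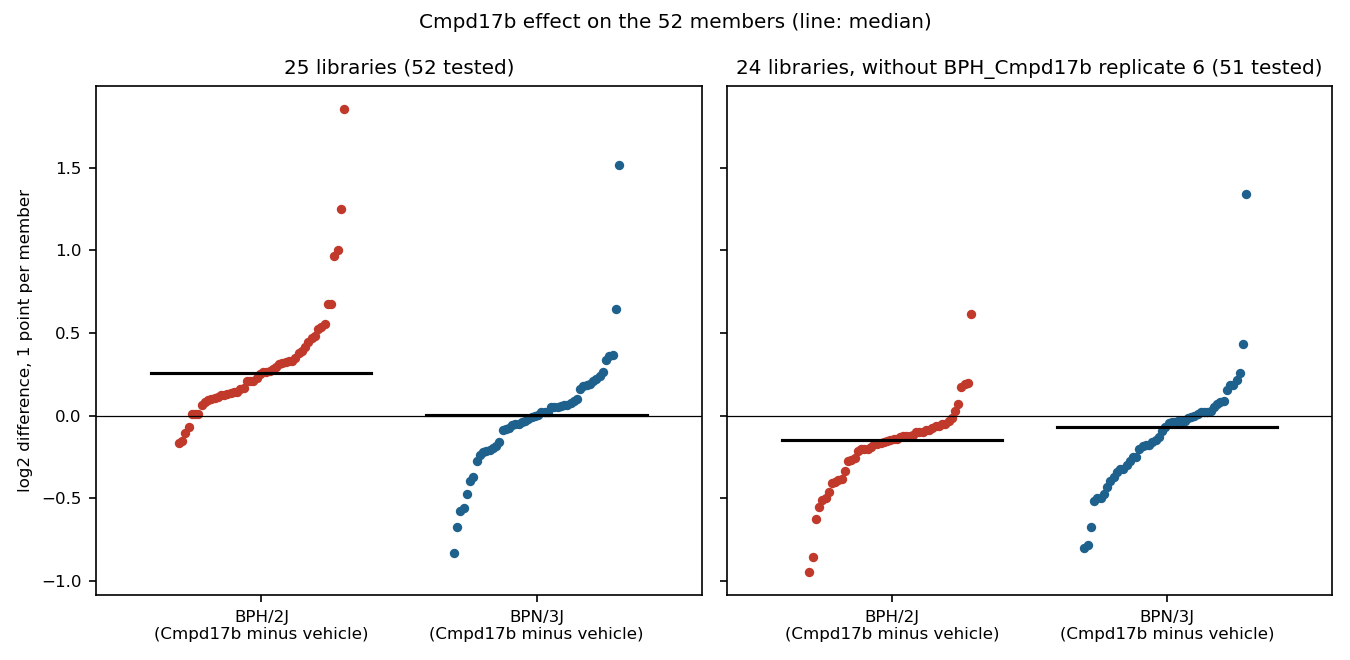
Log2 difference, Cmpd17b minus vehicle, for the genes tested with 25 and with 24 libraries, in BPH/2J and in BPN/3J; each point is a gene and the line is the median. In BPH/2J the median is 0.26 with replicate 6 and -0.15 without it.

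Between Cmpd17b and vehicle in BPN/3J ventricles, none of the 52 passed either, again with 0% of all genes, and the lowest adjusted p was 0.472 with 24 libraries. In edgeR 3 of the 52 with 25 libraries and 8 of 51 with 24 had an unadjusted p under 0.05, and DESeq2 called none of the 52. The 8 are listed without the share of all genes at that threshold, so no change in them is shown. Of the 8, the fibril-associated collagen Col12a1 was higher (1.34), with 4.15 CPM in 1 of the 5 BPN/3J Cmpd17b libraries and 0.375 to 0.761 CPM in the other 4. The 7 lower genes were Mfap4 (-0.79), Comp (-0.67), Ccn2 (-0.52), Col18a1 (-0.50), Col16a1 (-0.50), Pcolce (-0.34) and Tgfb3 (-0.28). Ccn2 was at 79.0, 58.8, 65.4, 70.0 and 76.4 CPM in BPN/3J Cmpd17b and 61.1, 82.1 and 194 CPM (lowest, median, highest) in BPN/3J vehicle libraries, and 4 of the 5 Cmpd17b values lay inside the vehicle range. Fibronectin and type I collagen lay near 0, at log2 differences of 0.08 for Fn1 and 0.05 for Col1a1. The median log2 difference was 0.00 over the 52 genes with 25 libraries and -0.07 over the 51 with 24.

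The interaction, the Cmpd17b effect in BPH/2J minus that in BPN/3J, passed for none of the 52 and for 0% of all genes. In edgeR 2 of the 52 with 25 libraries and 4 of 51 with 24 had an unadjusted p under 0.05, and DESeq2 called none of them. The 4 were Col18a1 (0.70), Col12a1 (-1.74), the proteoglycan Ogn (-0.28) and Fbn1 (-0.48), with the lowest adjusted p of all members at 0.983. A strain difference past the threshold under one treatment alone, as for Col3a1 or Col18a1, is therefore not shown to differ between Cmpd17b and vehicle.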

How the data were processed

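Polyadenylated RNA of 26 left ventricles was sequenced as paired reads. The deposited table holds expected counts per gene made by the authors; the submitters' processing notes name Trim Galore 0.6.7, STAR 2.7.9a and GRCm39, while the sources used here give neither the counting tool nor its strand setting. The values were whole to within 0.01 for all but 2.21%, and were rounded. CPM values were scaled by TMM. edgeR 4.0.16 (R 4.3.3) fitted the 4 groups with batch as a covariate to genes passing filterByExpr (minimum count 10), with Benjamini-Hochberg adjustment over all genes and a threshold of 0.05; log2 differences are given with SE. Alternatives were DESeq2 1.42.0, RLE scaling, other filters, no batch term, batch 1 alone, the compared groups alone, all 26 libraries, and each library left out. No pair of the 73 within-group pairs was identical. The members and lists were chosen with earlier results of these data known. The members named with values were those called in any comparison with 25 libraries, at most 15 by smallest adjusted p, plus Col1a1, Col3a1, Fn1, Postn, Tgfb1 and Ccn2; Thbs1 and the other members named were chosen after their values were seen. The fits were tested on simulated data. Promoter sequences came from RefSeq, and exon lengths from a GENCODE mouse annotation of an earlier build than the authors'. The values of 1 pathway gene are not reported here.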

Additional observations from a re-analysis of the deposited data

Results flagged for a closer look

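Among the 19 named genes, 76 sets of a gene in a group were examined, and in 23 of them 1 library stood farther from its nearest neighbour than the spread of the group allows. For a single set, chance flags about 1 in 20. These sets share the same libraries, and replicate 6 was already known to stand apart, so the 23 cannot be set against that rate. Of the 23, 15 were BPH/2J Cmpd17b replicate 6, the highest of its group of 6 for each. There Postn was at 506 CPM, Col3a1 at 746 CPM, Col1a1 at 305 CPM, Sparc at 649 CPM, Ccn2 at 191 CPM, Fbn1 at 177 CPM and Fn1 at 127 CPM. Mfap4 was at 55.6 CPM, Col6a3 at 54.2 CPM, Aspn at 58.9 CPM, Ltbp2 at 41.9 CPM, Col16a1 at 26 CPM, Thbs4 at 24.3 CPM, Cthrc1 at 6.69 CPM and Fmod at 3.11 CPM in the same library.

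BPN/3J vehicle replicate 7 was the highest of its group for Col1a1 (66.6 CPM), Fn1 (58.3 CPM), Fbn1 (52.2 CPM) and Tgfb1 (36.3 CPM). In BPH/2J vehicle, Col16a1 stood apart in replicate 3 (15.9 CPM) and Cthrc1 in replicate 7 (0.404 CPM). In BPN/3J Cmpd17b, Fn1 stood apart in replicate 1 (75.7 CPM), and Sparc was lowest in replicate 5 (171 CPM).

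In the kidney-like library that was left out, 3 members were above all of the other 25 libraries: Spp1 at 235 CPM, Col18a1 at 67.0 CPM and Fmod at 3.46 CPM. There 38 of the 52 lay below all 25.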

How the results depend on the processing

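The count of members called between the strains under vehicle, 9 with 25 libraries, was 2 with all 26 (9.59% of all genes called), 22 with 24 (20.0%), 4 with no filter on low counts (10.3%), 3 with no batch term (16.4%), 17 with only the compared groups fitted (15.3%) and 28 with 23 libraries (25.8%; also without BPN/3J vehicle replicate 7, chosen after seeing the data). It was 4 to 13 when 1 library was left out. With 24 libraries it was 11 in batch 1 alone (15.6%), against 22, and 18 to 28 when 1 library was left out. Under Cmpd17b the count of 11 was 2 with all 26 libraries (7.68% of all genes), 17 with no batch term (12.9%) and 20 with only the compared groups fitted (19.9%), and 7 to 15 when 1 library was left out. With only the compared groups fitted, replicate 6 was the sole batch 2 library and the batch term took it up. Those 20 calls therefore rested on the batch 1 libraries. With all 26 libraries the calls left were Mfap4 in both comparisons, Col6a3 under vehicle and Col16a1 under Cmpd17b, and Thbs2 had an adjusted p of 0.18 under vehicle and 0.574 under Cmpd17b in edgeR. With 24 libraries it was 8 to 12 when 1 library of the compared groups was left out, against 10. The calls lost in some of those fits were Cilp, Col15a1, Col6a1 and Col6a2 under vehicle and Col18a1, Col6a3, Ltbp2 and Sparc under Cmpd17b. The Cmpd17b effect in BPH/2J changed sign for 41 of the 51 genes tested both with 25 and with 24 libraries. Col1a1 gave -0.17 with 24 libraries, -0.12 in batch 1 and -0.14 with 23; Col3a1 gave -0.39, -0.40 and -0.37 in these 3 fits, and Postn -0.51, -0.47 and -0.48. With 1 library left out they ran from -0.17 to 0.68, -0.39 to 0.43 and -0.51 to 0.90 for Col1a1, Col3a1 and Postn. Beyond the removal of replicate 6, the cause was not tested. DESeq2 with 25 libraries called 11 members between the strains under vehicle (3281 of all 15543 genes) and 15 under Cmpd17b (2484 genes). With 24 libraries DESeq2 called 24 under vehicle (3444 of all 15478 genes), Col1a1 among them, and 12 under Cmpd17b (2259 genes). No member passed for Cmpd17b against vehicle or for the interaction under any alternative. No paired analysis was made because each library was counted as a different mouse and the labels name no pairs. Counts under about 1 CPM, as for Fmod and Cthrc1, limit what can be seen of the lowest genes.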
